A study of Homo sapiens with 4 samples.

Results

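The cells described here were FOXA2-positive cells of cultures grown from H9, an established human embryonic stem cell line, and sampled at day 6 of a protocol that leads towards dopaminergic neurons. RNA was read cell by cell from the 3′ ends of transcripts, and each captured molecule was counted as a unique molecular identifier (UMI). A barcode was taken as a cell with at least 4000 UMIs, 1000 genes and at most 20% of UMIs from mitochondrially encoded genes, and a cell was taken as FOXA2-positive with at least 2 FOXA2 UMIs. There were 2561 FOXA2-positive cells among 9791 cells at day 6, and 22599 cells in the whole series. The groups were unmodified H9 cells and H9 cells with a knockout of SIRT1, an NAD-dependent protein deacetylase, each with 1 library at day 6 and 1 library at day 0. The wild-type day 6 library held 1162 FOXA2-positive cells and 3260 cells without a FOXA2 UMI, here called FOXA2-zero cells. The knockout day 6 library held 1399 and 2291. The labels do not say which stretch of SIRT1 was deleted or how many clones the knockout came from. Because the cells were selected on their measured FOXA2 UMIs, the FOXA2 level is a description and not a finding, and genes that go with FOXA2 are described with no test.

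FOXA2 is a forkhead transcription factor. In the neural tube it marks the floor plate, the ventral midline strip that secretes the signal SHH and from which midbrain dopaminergic neurons descend, and it is also active in the notochord and in definitive endoderm. LINC00261 is a long non-coding RNA gene beside FOXA2, and FN1 encodes fibronectin, a protein of the extracellular matrix.

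With 1 library per group no difference has a replicate check, and no test was made. Levels are UMIs summed over a group of cells per 1000000 UMIs of that group, abbreviated CPM. Ranges in parentheses are exact 95% intervals, binomial for shares of cells and conditional binomial for ratios, and cover counting error only. The median cell held 8590 UMIs in the wild-type and 13169 in the knockout library at day 6. Whether the knockout cells held more RNA or were sequenced more deeply cannot be told apart. These libraries held 54824132 and 68523677 UMIs in all. Between any pair of the 4 libraries, 5 to 18 cell barcodes were shared, and none was shared between the FOXA2-positive cells of the 2 day 6 libraries. SIRT1 was found at 29.8 CPM in FOXA2-positive cells of wild type and 10.5 CPM in those of the knockout, 2.84-fold (2.40 to 3.37) lower in the knockout. FOXA2-zero cells gave 30.8 and 9.72 CPM. SIRT1 transcripts remained detectable in the knockout, where 4.29% of FOXA2-positive cells had a SIRT1 UMI after every cell was thinned to 4000 UMIs, against 9.98% in wild type. Free RNA at 10% of each cell's UMIs would give 0.421% in the knockout.

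LINC00261, which lies beside FOXA2, ranked first among the genes higher in FOXA2-positive than FOXA2-zero cells of both libraries, ranked by the smaller of the ratios of the 2 libraries. FOXA2 lies on chromosome 20 at chr20:22581005-22585455 (GRCh38, minus strand), and LINC00261 lies at chr20:22547671-22578642 on the same strand, 2.36 kb beyond the FOXA2 gene body in the direction of transcription. The promoter windows of LINC00261 and of BMP4 and DKK1, the genes that followed it in rank, are shown because these 3 genes lead the difference and because FOXA2 is a forkhead factor. Each window spans 250 bases before to 50 bases after the annotated start (RefSeq, GRCh38.p14) and is written 5′ to 3′ on the strand of the gene. Capitals mark the forkhead core motif GTAAACA, searched on both strands (reverse complement TGTTTAC).
LINC00261: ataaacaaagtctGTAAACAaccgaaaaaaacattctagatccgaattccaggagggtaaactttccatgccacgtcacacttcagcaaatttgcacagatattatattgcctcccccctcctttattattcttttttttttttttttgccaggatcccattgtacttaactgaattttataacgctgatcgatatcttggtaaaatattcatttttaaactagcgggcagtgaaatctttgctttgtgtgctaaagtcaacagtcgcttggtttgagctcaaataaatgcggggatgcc
BMP4: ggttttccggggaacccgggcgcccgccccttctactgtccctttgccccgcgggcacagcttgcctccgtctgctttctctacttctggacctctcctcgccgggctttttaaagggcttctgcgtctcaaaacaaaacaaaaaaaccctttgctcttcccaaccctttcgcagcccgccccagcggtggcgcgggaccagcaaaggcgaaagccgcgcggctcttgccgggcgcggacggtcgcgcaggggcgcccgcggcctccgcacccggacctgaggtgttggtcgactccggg
DKK1: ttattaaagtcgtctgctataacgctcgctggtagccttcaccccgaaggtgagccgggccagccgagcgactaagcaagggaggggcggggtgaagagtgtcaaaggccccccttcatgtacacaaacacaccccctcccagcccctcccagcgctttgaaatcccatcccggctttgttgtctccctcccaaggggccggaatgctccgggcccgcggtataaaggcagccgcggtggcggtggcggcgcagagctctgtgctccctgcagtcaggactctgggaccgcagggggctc
The LINC00261 window is chr20:22578593-22578892 (minus strand) and held the motif once, starting 237 bases before the start. The BMP4 window, chr14:53955001-53955300 (minus strand), and the DKK1 window, chr10:52314031-52314330 (plus strand), held no copy of these 7 letters. The motif was present in 931 of 27305 promoter windows in the table (3.41%). Of the 33 genes that were at least 2-fold higher in FOXA2-positive cells of both libraries and reached 20 CPM, 25 had a window in the table, and LINC00261 was the 1 of them with the motif (4%). A match is a description of letters and no evidence of binding.

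As sequenced, FOXA2-positive cells made up 21.6% (20.5 to 22.8) of the wild-type library and 31.7% (30.3 to 33.1) of the knockout library. After every cell was thinned to 4000 UMIs, 9.72% (8.94 to 10.5) and 10.3% (9.39 to 11.2) still had at least 2 FOXA2 UMIs, so the intervals overlapped at this equal depth. Among cells of 8000 to 16000 UMIs the shares as sequenced were 19.8% (18.3 to 21.4) and 29.5% (27.7 to 31.4), and the same cells thinned gave 7.59% (6.61 to 8.66) and 11.0% (9.78 to 12.3). Summed over all cells, FOXA2 stood at 91.4 CPM in wild type, and in the knockout at 101 CPM. A threshold of 2 UMIs is a lower FOXA2 level in a cell that holds more UMIs. The FOXA2-positive cells themselves held 318 CPM of FOXA2 in wild type, and those of the knockout 264 CPM. The part of depth in this difference was not tested.

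Just inside the threshold lay 510 wild-type and 466 knockout cells with exactly 2 FOXA2 UMIs. Just outside lay 950 and 729 cells with 1 UMI. LINC00261 stood at 96.0 CPM just inside and 63.4 CPM just outside in wild type, and at 64.2 and 35.2 CPM in the knockout. If 10% of each cell's UMIs were free RNA with the composition of barcodes of 1 to 50 UMIs, 17.4 wild-type and 45.2 knockout cells would reach 2 FOXA2 UMIs from it. Cells among the highest doublet scores were 6.2% of FOXA2-positive and 3.07% of FOXA2-zero cells in wild type, and 6.08% and 2.14% in the knockout. Without those cells 139 genes were at least 2-fold higher and 81 lower in wild-type FOXA2-positive than FOXA2-zero cells, and 110 and 69 in the knockout, in place of the 120, 68, 99 and 51 given below.

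The share of FOXA2-positive cells went with how much RNA a cell held from chromosome 20, where FOXA2 lies. This share of a cell's UMIs left out FOXA2 and LINC00261 as well as the genes of ribosomal proteins and of the mitochondrial genome, and its class limits of 2.6% and 3% come from an earlier analysis of these data. In the knockout 5.89% (5.04 to 6.83) of the 2784 cells below 2.6% were FOXA2-positive after thinning, 14.6% (11.6 to 18.0) of the 494 cells from 2.6% to 3%, and 19.1% (16.9 to 21.5) of the 1141 cells at 3% or more. In wild type the same classes gave 2.43% (0.793 to 5.57) of 206 cells, 9.45% (7.76 to 11.4) of 1069 and 10.2% (9.25 to 11.1) of 4097. Within the upper classes the thinned knockout share was thus above the wild-type share with intervals that did not overlap, while the intervals overlapped in the lowest class. The lowest class held 63.0% of all knockout and 3.83% of all wild-type cells. Of the FOXA2-positive cells themselves, 44.3% in the knockout and 0.775% in wild type lay below 2.6%, against 74.0% and 5.18% of FOXA2-zero cells. Among knockout cells with 5 or more FOXA2 UMIs the median chromosome 20 share was 3.03%, against 2.33% in FOXA2-zero cells.

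**Figure D1:**
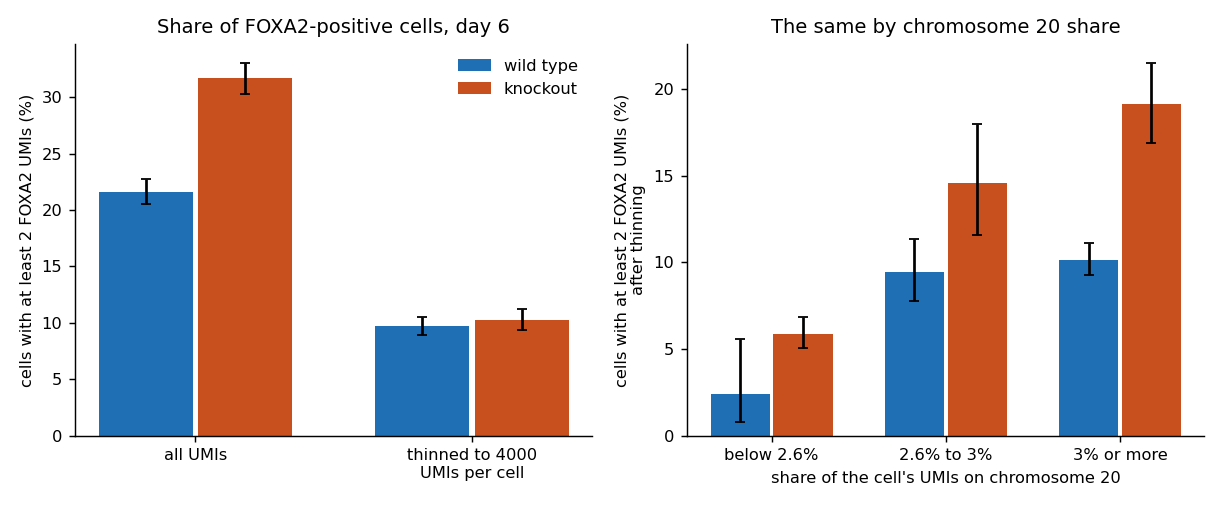
Percent of day 6 cells that were FOXA2-positive (at least 2 FOXA2 UMIs) with exact 95% binomial intervals, for each library as sequenced and thinned to 4000 UMIs, and thinned within 3 classes of chromosome 20 share. As sequenced the knockout was higher (31.7% against 21.6%). Thinned, the libraries were close over all cells (9.72% and 10.3%), and the knockout was higher in the 2 upper classes. Within each library the lowest class had the lowest share.

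The difference at LINC00261 was not shared by the other neighbours of FOXA2. The 7 other genes within 2 Mb that reached 10 CPM in a cell group (KIZ, XRN2, NXT1, GZF1, NAPB, CST3 and CST1) had ratios of FOXA2-positive over FOXA2-zero cells from 0.577 (CST1) to 1.45 (GZF1) in wild type and from 0.933 (CST1) to 1.40 (GZF1) in the knockout. For the measured genes of chromosome 20 the median log2 ratio was 0.10 in wild type, where other genes gave 0.08, and 0.17 in the knockout, where other genes gave 0.00444.

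The label of floor plate-like cells was checked against floor plate markers, and most of them were near 0. SHH was found at 1.19 CPM in FOXA2-positive cells of wild type and 1.26 CPM in those of the knockout, and 1.03% and 1.57% of these cells had an SHH UMI. FOXA1, the close relative of FOXA2, stood at 0.933 and 3.64 CPM. CORIN, a membrane protease used to sort floor plate cells, stood at 0.594 and 0.0899 CPM, and FERD3L at 0.0848 and 0.0450. LMX1A, a determinant of midbrain dopaminergic progenitors, reached 1.27 and 5.67 CPM. NKX2-2, a factor of the neighbouring ventral domain, was at 0 counts in wild type, which allows up to 0.255 CPM, and at 0.450 CPM in the knockout. SLIT2, a secreted axon repellent that floor plate and other cells make, was the 1 marker of the 13 on the list besides FOXA2 that reached 10 CPM, at 89.9 and 149 CPM. The 13 listed markers together stood at 105 CPM in FOXA2-positive and 48.3 in FOXA2-zero cells of wild type, of which SLIT2 gave 89.9 and 37.1. In the knockout they stood at 176 and 69.8 CPM, of which SLIT2 gave 149 and 58.8. Of the low markers, SHH, FOXA1 and LMX1A leaned towards FOXA2-positive cells, and no lean is claimed for the others. FOXA2-zero cells held 0.258 and 0.0920 CPM of SHH, 0.129 and 0.245 of FOXA1, and 0.161 and 0.583 of LMX1A. This lean of SHH, FOXA1 and LMX1A rests on few UMIs. In wild type the SHH ratio was under 2-fold after thinning to 4000 UMIs (log2 ratio 0.41). The intervals of SHH among cells called G1, and of FOXA1 in both settings, no longer excluded 1. The data thus go against a floor plate identity for the set as a whole, and the cells are called FOXA2-positive here.

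Markers of endoderm and notochord, the other tissues in which FOXA2 is active, were mostly near 0 as well. SOX17, GATA4 and TTR were at 0 counts in every cell group, which allows up to 0.255 CPM in wild-type and 0.135 CPM in knockout FOXA2-positive cells. TBXT, the notochord factor brachyury, was at 0 in FOXA2-positive cells of both libraries. NOTO, another notochord factor, stood at 0.509 and 3.33 CPM, and CHRD, which encodes the secreted BMP antagonist chordin, at 8.65 and 18.0 CPM against 2.29 and 3.86 in FOXA2-zero cells. The 17 definitive endoderm markers together gave 39.2, 21.2, 29.7 and 32.9 CPM in wild-type FOXA2-positive, wild-type FOXA2-zero, knockout FOXA2-positive and knockout FOXA2-zero cells, most of it CXCR4 and PRDM1. SOX2, a factor shared by pluripotent and neural progenitor cells, stood at 473 and 505 CPM and was detected in 93.4% and 98.5% of FOXA2-positive cells. PAX6 and SOX1, later neural factors, were at 0.0848 and 0.0848 CPM in wild type and 0.495 and 0.675 in the knockout.

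**Figure D2:**
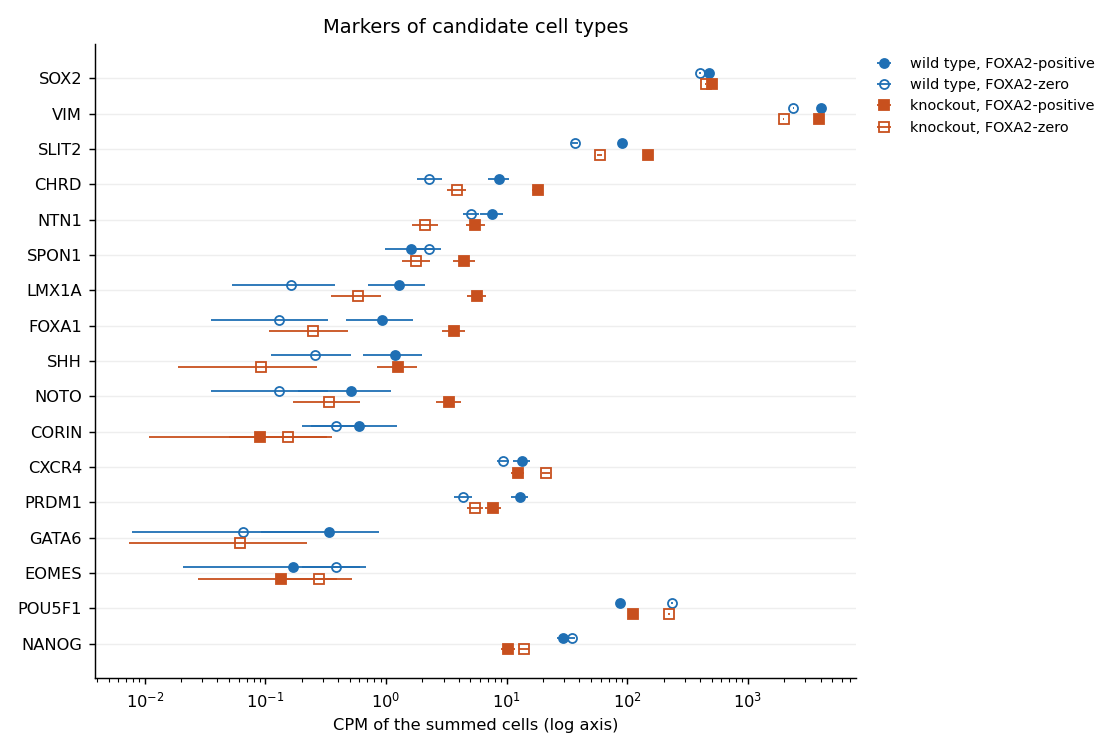
Levels (CPM, log axis) of 17 markers of candidate cell types, with exact 95% Poisson intervals, in FOXA2-positive and FOXA2-zero cells of both day 6 libraries. A gene at 0 counts in a group is not drawn for that group. SLIT2 and SOX2 stood above 30 CPM in all 4 groups, while SHH, FOXA1 and CORIN stayed below 4 CPM.

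Compared with FOXA2-zero cells of the same library, wild-type FOXA2-positive cells had 120 genes higher by 2-fold or more (1.46% of 8219 genes at 10 CPM or more in either group) and 68 lower by that much (0.827%), each with an interval excluding 1. In the knockout 99 genes were higher (1.13% of 8784) and 51 lower (0.581%). Of the higher genes 60 were shared, which is 50% of the wild-type and 60.6% of the knockout list, and of the lower genes 29 were shared (42.6% and 56.9%). None was higher in 1 library and lower in the other at this size. With scaling by trimmed mean of M-values (TMM) the wild-type counts were 93 higher and 93 lower, and the knockout counts 91 and 64. The TMM factors were 1.08 and 1.02.

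LINC00261 was 8.09-fold (7.30 to 8.98) higher in wild-type FOXA2-positive cells, at 127 against 15.7 CPM, and 12.1-fold (10.7 to 13.8) higher in the knockout, at 107 against 8.83 CPM. At equal depth 36.1% of wild-type FOXA2-positive cells had a LINC00261 UMI, 6.32% of FOXA2-zero cells did, and free RNA at 10% of UMIs would give 2.15%. Fibronectin (FN1) was 4.91-fold (4.69 to 5.15) higher in wild type, at 441 against 89.7 CPM, and 4.34-fold (4.06 to 4.65) higher in the knockout, at 152 against 34.9 CPM. LINC00261 and FN1 were chosen as markers on earlier results of these data, so their direction is no independent evidence.

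Several of the higher genes encode secreted signals or their antagonists. BMP4, a bone morphogenetic protein, was 5.61-fold (5.15 to 6.12) higher in wild type (139 against 24.8 CPM) and 9.23-fold (7.96 to 10.7) higher in the knockout (58.0 against 6.29). DKK1, a secreted inhibitor of WNT signalling, was 5.51-fold (4.78 to 6.36) and 6.26-fold (5.56 to 7.05) higher, at 50.8 and 66.8 CPM in FOXA2-positive cells. BMP2 was 4.61-fold and 3.96-fold higher, at 22.1 and 13.1 CPM. CHRD was 3.78-fold and 4.67-fold higher but stayed below 10 CPM in wild type. SLIT2 was 2.43-fold (2.23 to 2.64) and 2.53-fold (2.39 to 2.68) higher. TPBG, a membrane protein that dampens WNT signalling, was found at 161 CPM in FOXA2-positive cells of wild type and 202 CPM in those of the knockout, 3-fold and 4.02-fold above FOXA2-zero cells.

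Among transcription factors, OLIG1, a basic helix-loop-helix factor, was 5.39-fold (4.47 to 6.52) higher in wild type and 4.76-fold (4.11 to 5.51) higher in the knockout, at 29.2 and 35.4 CPM. Its chromosomal neighbour OLIG2 stood at 13.3 and 10.6 CPM, 2.85-fold and 2.81-fold higher. PROX1, a homeobox factor, was 3.27-fold (2.93 to 3.65) and 3.27-fold (2.94 to 3.65) higher, at 62.0 and 48.5 CPM. LMCD1, a LIM-domain co-regulator, was 5.59-fold and 3.62-fold higher. The non-coding RNA LINC00472 was 3.85-fold and 3.61-fold higher, and CGNL1, a protein of cell junctions, 3.37-fold and 3.97-fold. After thinning to 4000 UMIs the differences of LMCD1 and SLIT2 in the knockout were under 2-fold, with log2 ratios of 0.95 and 0.80.

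**Figure D3:**
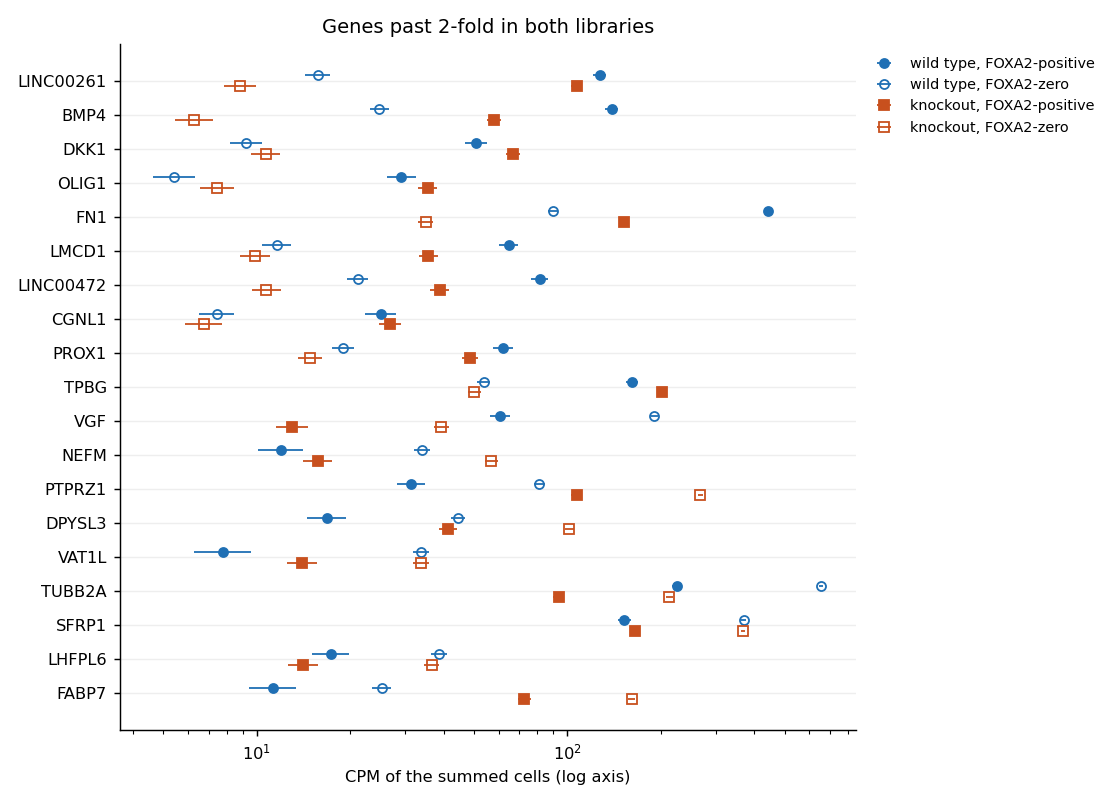
Levels (CPM with exact 95% Poisson intervals, log axis) of the 10 highest-ranked genes higher and 9 of the 10 highest-ranked genes lower in FOXA2-positive cells, in FOXA2-positive and FOXA2-zero cells of each library. In each library the FOXA2-positive point lies above the FOXA2-zero point for the higher genes, LINC00261 among them, and below it for the lower genes, VGF among them.

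The genes lower in FOXA2-positive cells included neuronal and cytoskeletal genes. VGF, a neuroendocrine secreted protein, was 3.13-fold (2.89 to 3.38) lower in wild type (60.8 against 190.2 CPM) and 3.02-fold (2.66 to 3.44) lower in the knockout (13.0 against 39.3). NEFM, a neurofilament subunit, stood at 12.0 against 34.1 CPM in wild type and 15.7 against 56.9 in the knockout. TUBB2A, a beta-tubulin, was 2.91-fold and 2.27-fold lower. PTPRZ1, a receptor phosphatase of neural progenitors, was 2.59-fold and 2.50-fold lower, and SFRP1, a secreted WNT modulator, 2.42-fold and 2.23-fold. DPYSL3, VAT1L, LHFPL6 and FABP7 were lower as well, with ratios of 2.22-fold to 4.33-fold lower. FABP7, a fatty acid binding protein of radial glia, was lower by less than 2-fold in wild type when only cells called G1 (log2 ratio -0.55) or only cells of 8000 to 16000 UMIs (-0.93) were compared. Among knockout cells with a chromosome 20 share below 2.6%, an alternative added after seeing the data, the differences of TUBB2A, SFRP1, DPYSL3, VAT1L and FABP7 were under 2-fold, with log2 ratios of -0.90, -0.92, -0.96, -0.80 and -0.72.

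Gene lists were counted at 1.5-fold with an interval excluding 1, a size that 5.34% of measured genes passed upwards and 2.41% downwards in wild type, and 2.85% and 2.12% in the knockout. A gene that reached 10 CPM in FOXA2-positive or in FOXA2-zero cells alone could be called in that direction only. The shares over all measured genes include such genes. Over all measured genes the median log2 ratio was 0.08 in wild type (-0.03 with TMM) and 0.01 in the knockout (-0.02 with TMM). Of pluripotency genes in wild type 6 of 11 measured were lower and none higher, with a median log2 ratio of -0.75. In the knockout 4 of 10 were lower, with a median of -0.39. POU5F1, the core pluripotency factor, stood at 87.4 against 235 CPM in wild type and 111 against 222 in the knockout. NANOG differed less, at 29.3 against 34.5 and 10.2 against 14 CPM. Of neuronal genes 3 of 6 measured were lower in each library and none higher (6 of 8 lower in wild type with TMM scaling), and of neural crest genes 2 of 3 in wild type and 3 of 4 in the knockout were lower, led by SOX9 (26.9 against 57.4 and 60.3 against 120.3 CPM).

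Neural progenitor genes differed in both directions. VIM, the intermediate filament vimentin, stood at 4054 against 2375 CPM in wild type and 3918 against 1977 in the knockout, 1.71-fold and 1.98-fold higher in FOXA2-positive cells. FABP7, ZIC2 and PTN were lower in both libraries. PTN, a secreted growth factor, stood at 109 against 219 CPM in wild type and 328 against 1105 in the knockout. The list as a whole counted 1 higher and 3 lower of 10 measured in wild type, and 2 higher and 3 lower of 11 in the knockout. With TMM scaling these counts were the same. Of the hedgehog pathway, which the floor plate signal SHH acts through, the repressor gene GLI3 was higher in both libraries (56.3 against 31.0 and 68.6 against 45.5 CPM). PTCH1, the SHH receptor and a target of the pathway, stood at 60.2 against 44.6 and 171 against 138 CPM and did not reach 1.5-fold. With TMM scaling GLI3 no longer reached 1.5-fold in the knockout, where GLI2 and BOC were lower. Of the dorsal and lateral neural tube list OLIG2 was higher and ZIC2 lower in each library.

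Of extracellular matrix genes 4 of 18 measured were higher in each library, and 0 lower in wild type and 1 (FREM2) in the knockout. FN1, COL2A1 and FRAS1 were among the 4 in both, joined by the laminin gene LAMB1 in wild type and LAMA5 in the knockout. COL2A1, type II collagen, stood at 180.5 against 65.8 CPM in wild type and 263 against 139.6 in the knockout. Of WNT genes, DKK1 and NKD1, both inhibitors, were higher and SFRP1 and SFRP2 lower in each library, with 3 higher and 3 lower of 9 measured in wild type and 3 higher and 2 lower of 10 in the knockout. Of the BMP, NODAL and TGF-beta list 3 of 13 were higher and 0 lower in wild type (2 and 1 of 14 with TMM scaling), and 4 of 13 higher and 2 lower in the knockout. As scaled to total UMIs BMP2, BMP4 and TGFB1 were higher in both, while ID1, a common target of BMP signalling, differed by 1.28-fold and 1.15-fold. BMP2 in wild type, and CHRD, BMP2 and BMP4 in the knockout, reached 10 CPM in FOXA2-positive and not in FOXA2-zero cells, so these could only be called higher. The same holds for DKK1 in wild type, at 9.22 CPM in FOXA2-zero cells. Of Notch genes 3 were higher and 1 lower of 9 in wild type (1 and 1 with TMM scaling), and 3 higher and 2 lower of 8 in the knockout. In FOXA2-zero cells only 7 of these genes reached 10 CPM in wild type and 6 in the knockout, so the rest could only be called higher. As scaled to total UMIs HEY1, NOTCH2 and LFNG were higher and the ligand JAG1 lower in both, and the receptor NOTCH1 was lower in the knockout. Of keratin and surface ectoderm genes KRT19 was higher in both (306 against 167 and 152 against 70.5 CPM). Of p53 targets 3 of 21 were lower and 0 higher in each library, and none of 21 glycolysis genes passed in either.

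Calls of cell cycle phase differed between FOXA2-positive and FOXA2-zero cells. In wild type 37.0% of FOXA2-positive cells were called G1, 22.7% S and 40.3% G2/M, against 32.2%, 38.4% and 29.4% of FOXA2-zero cells. In the knockout the shares were 31.0%, 18.3% and 50.7%, against 15.8%, 30.6% and 53.5%. S phase calls were thus fewer among FOXA2-positive cells in both. Of 52 genes of G2 and M phase 30 were higher in wild-type FOXA2-positive cells, 15 with TMM scaling, 10 after thinning, 41 among cells of 8000 to 16000 UMIs and 1 of 39 among cells called G1. In the knockout the count was 0. The phase calls were made from these same 52 genes and the S phase list, so the counts add no separate evidence. Cells called G1 were picked for low levels of these genes, so their count was limited beforehand. The cells of the mitotic clusters held a median of 12792 UMIs in wild type and 16988 in the knockout, above the libraries' medians, and the part of depth in the phase shares was not tested. Phases were called with every cell thinned to 4000 UMIs, while the FOXA2-positive cells were taken as sequenced. Cells still FOXA2-positive after thinning were 42.7% G1, 21.6% S and 35.6% G2/M in wild type. In the knockout they were 44.3%, 13.0% and 42.7%. Phase calls read free RNA too, and show no cycling by themselves.

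The levels of several genes followed the number of FOXA2 UMIs. Over cells with 0, 1, 2, 3 to 4, and 5 or more FOXA2 UMIs, LINC00261 stood at 15.7, 63.4, 96.0, 138 and 167 CPM in wild type and at 8.83, 35.2, 64.2, 99.3 and 151 CPM in the knockout. BMP4 stood at 24.8, 87.0, 124, 133 and 183 CPM and 6.29, 20.8, 36.8, 58.0 and 76.1 CPM, so its highest level in the knockout was below that of wild-type cells with 1 UMI. FN1 stood at 89.7, 279.6, 394, 506 and 405 CPM in wild type, where the top class was below the one before it, and 34.9, 55.3, 84.1, 159 and 203 CPM in the knockout. POU5F1 ran the other way, at 235, 140.2, 99.3, 84.6 and 68.6 and 222, 209, 153, 111 and 75.0 CPM. SOX2 differed little between the lowest and the highest class, from 398 to 522 CPM in wild type and from 445 to 535 CPM in the knockout. NOTO in the knockout stood at 0.337 CPM in the lowest and 6.2 CPM in the highest class, and SHH did not pass 1.92 CPM in any class. The classes share the cells' depth as well as their FOXA2 level, so the order is a description.

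**Figure D4:**
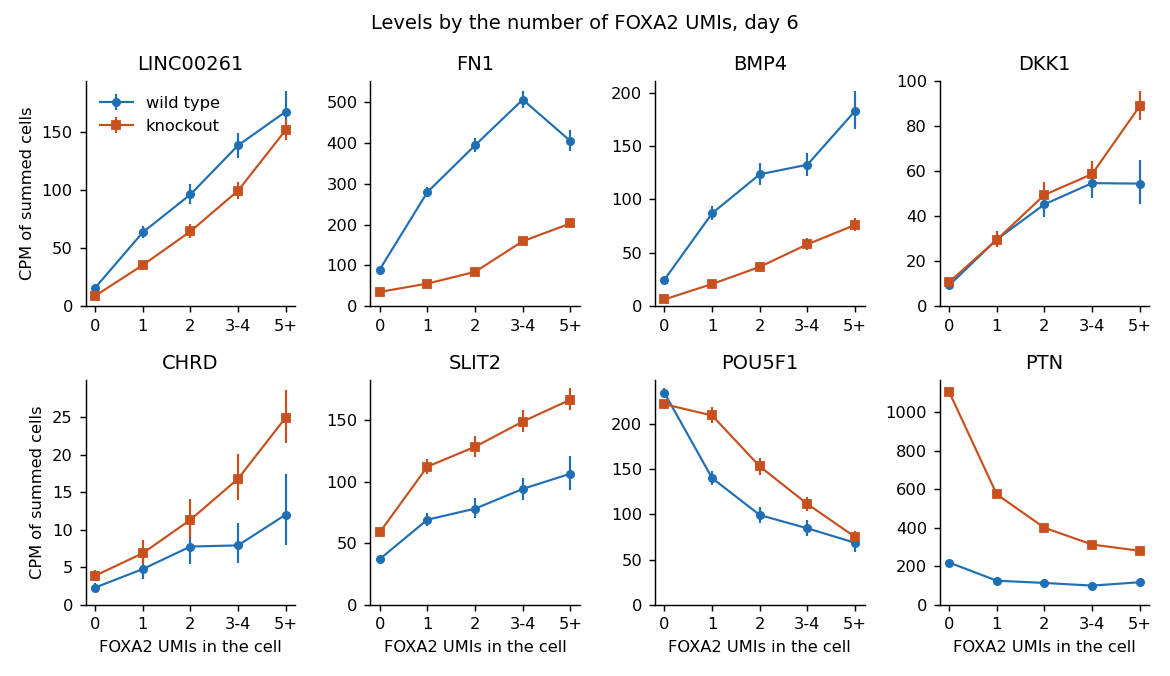
Level (CPM, linear axes from 0, with exact 95% Poisson intervals) of 8 genes in cells grouped by their number of FOXA2 UMIs, in wild type and knockout at day 6. LINC00261 is higher in each class than in the class before it in both libraries, from 15.7 to 167 CPM in wild type and from 8.83 to 151 CPM in the knockout, and POU5F1 is lower in each.

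FOXA2-positive cells of the knockout were then compared with those of wild type. By its title the series asks how SIRT1 takes part in metabolism and differentiation of stem cells. Of 8791 genes at 10 CPM or more in either group, 172 (1.96%) were higher by 2-fold or more and 167 (1.9%) lower by that much in the knockout. With TMM scaling (factor 1.12) the counts were 103 and 233, so the share of calls that were upward went from 50.7% to 30.7%. The median log2 ratio of all genes was 0.18 as scaled to total UMIs and 0.01 with TMM, and the ratios below are as scaled to total UMIs, without that shift taken off. In FOXA2-zero cells these medians were 0.27 and 0.01. The share of all genes past 1.5-fold was not counted in FOXA2-zero cells, so list counts there have no share to be read against. Where a pair of log2 ratios is given, the first is of FOXA2-positive and the second of FOXA2-zero cells of the same 2 libraries.

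Regional neural genes were among those higher in knockout FOXA2-positive cells. SIX6, a homeobox factor of the anterior forebrain and eye field, stood at 24.7 CPM in the knockout and 1.10 CPM in wild type, a log2 ratio of 4.43, against 2.17 in FOXA2-zero cells. SIX3, a related forebrain factor, stood at 17.1 and 2.21 CPM, with log2 ratios of 2.93 and 0.93. EN1, a factor of the midbrain and anterior hindbrain, stood at 17.5 and 1.87 CPM (3.19 and 1.43). GBX2, a factor of the anterior hindbrain, stood at 38.0 and 5.94 CPM, and its log2 ratio of 2.67 was close to the 2.84 of FOXA2-zero cells. OTX2, a forebrain and midbrain factor, was higher in the knockout among FOXA2-positive cells (20.2 against 12.0 CPM) and lower among FOXA2-zero cells (11.1 against 20.7 CPM). SIX3, SIX6, EN1 and GBX2 reached 10 CPM in knockout FOXA2-positive cells and not in those of wild type, as did the forebrain factor HESX1 (10.1 and 3.73 CPM), so no count over their lists is given.

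Most of the other leading genes were higher in the knockout in both kinds of cell. FABP7 had log2 ratios of 2.68 and 2.67, ST6GALNAC5, a sialyltransferase gene, 2.43 and 2.31, NTS, the neurotensin gene, 2.50 and 1.89, and PTPRZ1 1.77 and 1.72. PPP3CA and NLGN4X had lower ratios in FOXA2-positive than in FOXA2-zero cells (1.85 and 2.19, and 1.65 and 2.10). SSTR2, a somatostatin receptor, and SIPA1L2 had higher ones (1.71 and 0.69, and 1.67 and 0.87). SHISA2, an endoplasmic reticulum protein that restrains WNT and FGF receptors, was named after its values were seen, with log2 ratios of 1.43 and 0.08. Among FOXA2-positive cells called G1 the log2 ratios of PPP3CA and SHISA2 were 0.80 and 0.92, under 2-fold. PTCH1 was higher in the knockout in both kinds of cell (1.51 and 1.62). These differences between the ratios were not tested.

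Mesenchyme and cytoskeletal genes and p53 targets were among those lower in knockout FOXA2-positive cells. Of the mesenchyme and cytoskeletal list 8 of 10 measured were lower by 1.5-fold or more and none higher, a size that 4.1% of genes passed downwards and 12.2% upwards. FOXA2-zero cells gave 8 of 9 lower, where the share over all genes was not counted. Of the 8, S100A6, ANXA1 and SPP1 reached 10 CPM in wild-type FOXA2-positive cells and not in those of the knockout, so these could only be called lower. The same limit holds in FOXA2-zero cells, where 9 genes of the list reached 10 CPM in wild type and 6 in the knockout. S100A6, a calcium-binding protein, was found at 69.8 CPM in FOXA2-positive cells of wild type and 0.855 CPM in those of the knockout, and its knockout share after thinning (0.429%) was under the 11.5% that free RNA at 10% of UMIs would give. Its log2 ratios were -6.32 and -3.75. The 10% of free RNA was assumed, and for S100A6 it gave more than was found. ANXA1, an annexin, stood at 22.1 and 0.765 CPM, with log2 ratios of -4.82 and -3.73. SPP1, the secreted protein osteopontin, stood at 77.4 and 3.96 CPM (-4.28 and -3.89), and TAGLN, an actin-binding protein, at 305 and 30 CPM (-3.35 and -2.57). EDN1, endothelin 1, had log2 ratios of -3.92 in FOXA2-positive and -3.06 in FOXA2-zero cells, and ANKRD1, a target of mechanical signalling, -2.76 and -3.53. KCNF1, MIR205HG and EMP1 had log2 ratios of -3.16, -2.81 and -2.47, and of -2.82, -2.35 and -2.81 in FOXA2-zero cells. Of p53 targets 10 of 21 were lower and none higher, and in FOXA2-zero cells 10 of 21 were lower and 1 higher. CDKN1A, the cell cycle inhibitor p21, stood at 231 and 55.9 CPM, with a like ratio in FOXA2-zero cells (-2.05 and -2.01). Of immediate early genes 6 of 10 were lower and EGR1 higher, and FOXA2-zero cells gave the same counts.

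The genes that set FOXA2-positive cells apart also differed in level between the genotypes. FN1 was 2.91-fold (2.78 to 3.04) lower in knockout FOXA2-positive cells and BMP4 2.40-fold (2.23 to 2.58) lower, and in FOXA2-zero cells they were 2.57-fold and 3.94-fold lower. Among cells called G1 the log2 ratios of FN1 and BMP4 were -0.82 and -0.37, and among cells with a chromosome 20 share of 3% or more that of BMP4 was -0.60. LINC00261 differed little, at 127 and 107 CPM (1.18-fold lower), and was 1.77-fold lower in FOXA2-zero cells. DKK1 stood at 50.8 and 66.8 CPM (0.39 and 0.21) and CHRD at 8.65 and 18.0 CPM (1.05 and 0.75). ID1 was 5.18-fold (4.77 to 5.62) lower in the knockout and 4.65-fold lower in FOXA2-zero cells, with 5 of 13 measured genes of the BMP, NODAL and TGF-beta list lower and 2 higher. Of neural progenitor genes 5 of 11 were higher, where 12.2% of all measured genes passed upwards. In FOXA2-zero cells 5 of 10 were higher, with no share over all genes counted. PTN was among the higher genes, at 109 and 328 CPM (1.59 and 2.33), and among FOXA2-positive cells with a chromosome 20 share of 3% or more its log2 ratio was 0.91. Axon guidance genes counted 6 higher and 0 lower of 13, but 1 and 1 of 14 with TMM scaling, and S phase genes 11 higher of 36, but 5 with TMM scaling. In FOXA2-positive cells 9 axon guidance genes reached 10 CPM in wild type and 13 in the knockout, and 32 and 36 S phase genes. A gene that reached 10 CPM in the knockout alone, such as CHRD, could only be called higher, and in wild type alone only lower. Of 52 genes of G2 and M phase 4 were higher and 1 lower, but 0 and 30 among cells of 8000 to 16000 UMIs.

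**Figure D5:**
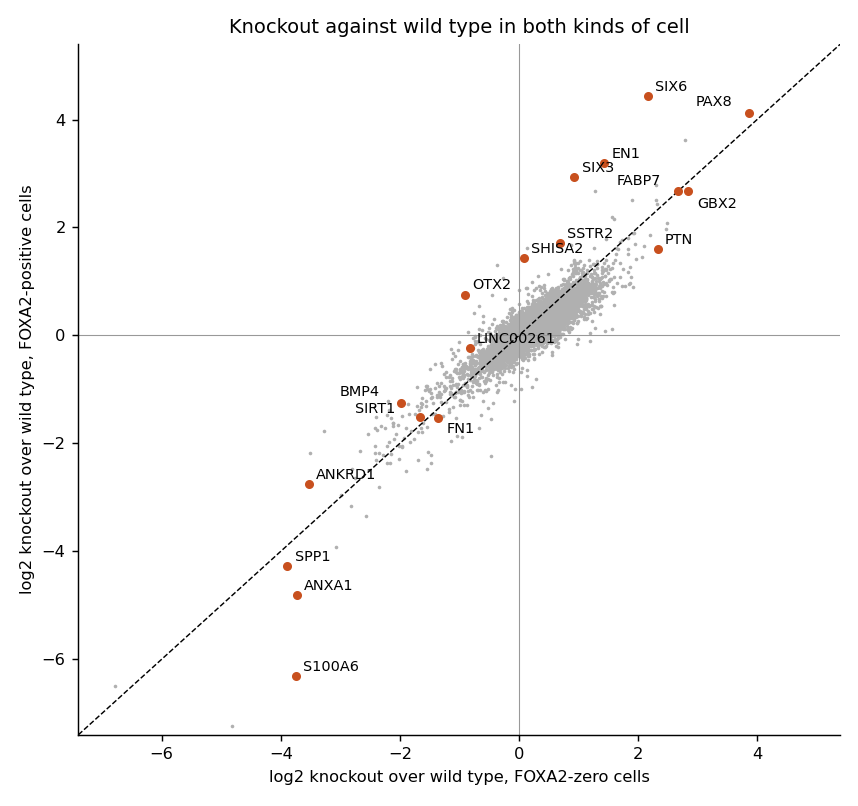
Log2 ratio of knockout over wild type in FOXA2-positive cells (y axis) against the same ratio in FOXA2-zero cells (x axis), each point a gene, with the line of equal ratios dashed. SPP1, FABP7 and GBX2 lie near the line, while SIX6, SIX3, EN1, OTX2 and SHISA2 lie above it and S100A6 and ANXA1 below.

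FOXA2-positive cells were spread over most of the cell clusters, which were built with FOXA2 left out and are called here by their leading genes. In wild type they made up 39.4% of a cluster led by PROX1, NCALD and LINC00261, 35.6% of a mitotic cluster led by NEK2 and AURKA, and 3.12% of a cluster led by PLA2G2A, ESRG and UTF1 in which POU5F1 was also high. After thinning the shares were 22.8%, 14.4% and 0.857%. In the knockout they made up 57.4% of a cluster led by FN1, OLIG1 and LINC00261, 54.5% of a cluster led by SIX6 and SIX3, and 5.82% of a cluster led by PTN, LIX1 and NEFM, and 25.4%, 15.9% and 1.04% after thinning. The median chromosome 20 share was 2.68% in the FN1-led and 2.85% in the SIX6-led cluster, and 2.29% in the PTN-led cluster. The clustering used the same cells' genes, so these shares describe how the cells group and test nothing.

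The knockout FOXA2-positive cells of these clusters differed from each other. The 470 in the FN1-led cluster held 312 CPM of FN1, 69.4 of OLIG1, 173 of LINC00261 and 12.5 of SIX6. The 295 in the SIX6-led cluster held 101, 34.4, 120.5 and 60.5 CPM of these genes, with 102 CPM of DKK1 and 34.4 of OTX2. The 83 in a cluster led by PLA2G2A and MIR302CHG held 392 CPM of POU5F1, against 55.1 and 44.3 in the FN1-led and SIX6-led clusters, and 158 CPM of FOXA2, against 347 and 277. Of the FN1-led cluster 74.0% of cells were called G1, and of the SIX6-led cluster 4.62%. The ratios of SIX6, SIX3 and EN1 between FOXA2-positive and FOXA2-zero cells of the knockout were log2 1.43, 1.88 and 1.94 over all cells and 0.48, 0.79 and 0.67 among cells called G1, and that of SIX6 was 0.86 after thinning.

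At the level of single cells the regional genes overlapped in part. Of 1399 knockout FOXA2-positive cells 176 had a SIX6 UMI, 170 a SIX3 UMI and 67 both. SIX3 was thus found in 38.1% of cells with SIX6 and 8.42% of the others. EN1 was found in 17.6% of cells with SIX6 and 14.1% of the others, so these differed little. OTX2 was found in 39.2% and 14.6%, FOXA1 in 13.6% and 2.94%, OLIG1 in 12.5% and 29%, and POU5F1 in 23.3% and 50.5%. Cells with LMX1A had a BMP4 UMI in 60.6% and others in 33.3%. None of the 176 cells with SIX6 had an SHH UMI, against 1.80% of the others. With 22 SHH cells in all, this is too few to read as a lack of overlap. OLIG1 and LINC00261 went together, with OLIG1 in 35.9% of cells with LINC00261 and 13.9% of the others. Deeper cells have more genes detected, which these shares as sequenced include.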

How the data were processed

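The deposited files gave raw UMI counts per gene and barcode for every barcode, and nothing had been normalised. Per the submitters' processing notes the authors used Cell Ranger 6.1.2 with GRCh38, while the matrix header names Cell Ranger 4. Cells and FOXA2-positive cells were taken by the limits given above. Members and gene lists were chosen with earlier results of these data known. Counts were summed over cells, scaled to total UMIs, and compared as ratios with exact Clopper-Pearson intervals in Python (scipy 1.17.1), with no test. edgeR 4.0.16 gave the TMM factors alone. The method was checked on simulated data. A gene counted as measured at 10 CPM in either group, and log2 ratios used a prior count of 0.5. Named genes were the 10 highest and 10 lowest of each comparison at 20 CPM, up to 5 members of each list, and the neighbours of FOXA2. Some of these genes are not reported here. Clusters and phases came from scanpy 1.11.5, gene positions from GENCODE 29. Scrublet's automatic threshold marked 0 cells, which was treated as not having worked, so doublets were kept, and in an alternative the top scorers were taken out at a rate of 0.8% for every 1000 cells. Other alternatives varied the UMI limits, thinning, scaling, the free RNA correction, phase and chromosome 20 share.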

Additional observations from a re-analysis of the deposited data

Results flagged for a closer look

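OTX2 stood out because its ratio of FOXA2-positive over FOXA2-zero cells pointed in opposite directions in the libraries. The log2 ratio was -0.79 in wild type and 0.87 in the knockout, a difference of 1.66. LGI1, which encodes a secreted protein of neurons, did the same, with log2 ratios of -0.64 and 1.02 and a difference of 1.67. With 1 library per genotype these differences were not tested.

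Cells with at least 2 FOXA2 UMIs were also present at day 0, outside the comparisons above. They were 53 of 5533 wild-type cells (0.958%, exact 95% interval 0.718 to 1.25) and 10 of 7275 knockout cells (0.137%, 0.0659 to 0.253). The median cell held 12645 UMIs in the wild-type and 8367 in the knockout library at day 0, so UMIs per cell differ there too.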

How the results depend on the processing

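The share of FOXA2-positive cells in wild type and knockout was 39.3% and 48.2% with 1 FOXA2 UMI or more, 12.1% and 21.1% with 3 or more, 9.72% and 10.3% after thinning to 4000 UMIs, and, in an alternative chosen after seeing the data, 19.8% and 29.5% among cells of 8000 to 16000 UMIs. The 51 genes lower in knockout FOXA2-positive than FOXA2-zero cells became 82 with 3 FOXA2 UMIs or more, 136 after thinning, 97 among cells of 8000 to 16000 UMIs, 83 with free RNA subtracted, 134 among cells called G1, 90 at a chromosome 20 share of 3% or more and, chosen after seeing the data, 29 below 2.6%, where wild type had 9 FOXA2-positive cells and was not compared. The 68 lower in wild type became 105 without ribosomal and mitochondrial genes in the totals. The 172 genes higher in knockout than wild-type FOXA2-positive cells became 302 after thinning and 103 with TMM factors. With genes measured at 1 CPM the counts were 447 higher and 271 lower in wild type, 350 and 229 in the knockout, and 826 and 498 between genotypes. The causes were not tested. Of 1279 recomputed values of single genes none changed direction once past its threshold, 35 lost their call, 30 of them with a ratio under 2-fold and 5 (SHH and FOXA1) with an interval that no longer excluded 1, and 13 newly passed. No paired analysis was possible because each group has 1 library. A share of cells with a UMI depends on depth, and the thinned shares are the ones to compare between libraries. Thinned shares of FOXA2-positive cells in wild type and knockout were 8.36% and 10.1% among cells of 6000 UMIs or more. Among cells of 8000 to 16000 UMIs they were 7.59% and 11.0%.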

Other observations

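Some genes that the rule for named genes does not name were looked at after their values were seen. SAT1, an enzyme of polyamine breakdown, stood at 1849 CPM in wild-type FOXA2-positive and 653 CPM in FOXA2-zero cells, and at 3310.4 and 775 CPM in the knockout. Over cells with 0 to 5 or more FOXA2 UMIs it ran through 653, 1234, 1543, 1893 and 2386 CPM in wild type and 775, 1629, 2473, 3322 and 4016 CPM in the knockout. Knockout FOXA2-positive cells of the SIX6-led cluster held 5705 CPM of it. SOX21, a SOX family repressor, stood at 33.1 against 9.42 CPM in wild type and 43.4 against 21.1 in the knockout. TFF3, a secreted trefoil peptide, stood at 29.4 against 12.0 and 74.9 against 22.7 CPM, and HAS2, a hyaluronan synthase, at 20.6 against 6.48 and 23.9 against 10.3 CPM.

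Genes of retinoic acid handling differed as well. CRABP2, a retinoic acid binding protein, was 1.60-fold higher in wild-type and 1.87-fold higher in knockout FOXA2-positive cells, and DHRS3, a retinal reductase, 4.15-fold and 2.70-fold, while CRABP1 stood at 633 against 668 and 999.9 against 1286 CPM. TWIST1, a mesenchymal transcription factor, stood at 10.2 against 3.10 CPM in wild type and 11.0 against 3.74 in the knockout. Cholesterol synthesis genes counted 0 of 19 and 0 of 20 past 1.5-fold between FOXA2-positive and FOXA2-zero cells. Of all measured genes 5.34% passed upwards in wild type and 2.85% in the knockout. In knockout FOXA2-positive cells 5 of 20 were higher than in wild type (3 with TMM scaling), where 12.2% of all measured genes passed upwards as scaled to total UMIs. The count rests on few genes and was not tested.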
